A study of Drosophila melanogaster with 4 samples.

Results

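The apicobasal polarity genes divide the membrane of an epithelial cell into an apical and a basolateral domain. They were measured here in Drosophila melanogaster pupal eye discs with normal or raised levels of Yorkie (Yki), the growth-promoting coactivator at the end of the Hippo pathway. The set was made of 10 genes of 11982 genes named on the array: crb, sdt and Patj of the Crumbs complex, baz, par-6 and aPKC of the Par complex, scrib, dlg1 and l(2)gl of the Scribble group, and yrt. Members were found by their gene symbol, all 10 had at least 1 probe set, and the brightest probe set by the mean of the 4 arrays stood for each gene. Together they had 23 probe sets of 18769 non-control probe sets.

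Both groups were raised at 29 °C and dissected about 40 h after pupariation. The 2 control arrays came from discs of genotype GMR Gal4, and the 2 Yki arrays from discs of GMR Gal4 crossed to UAS Yki. GMR Gal4, the eye driver that both groups carry, expresses the yeast activator Gal4 in the differentiating eye cells. The raised Yki is therefore limited to cells in which the driver is active, while the RNA came from the dissected discs. The number of animals behind each array and the dose of the driver in each group are not given in the labels.

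The Crumbs complex lies in the apical membrane and, in photoreceptors, in the stalk membrane beside the rhabdomere. The Par complex acts at and above the adherens junctions, where its kinase aPKC keeps basolateral proteins out of the apical domain. The Scribble, Dlg and Lgl proteins act on the basolateral side, and their loss gives overgrown, disorganised imaginal discs. Crumbs and Lgl also feed into the Hippo pathway, whose kinases restrain Yki.

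None of the 10 polarity genes passed the test between Yki and control discs. Limma on log2(intensity + 16), fitted over all probe sets, gave the members Benjamini-Hochberg adjusted p-values from 0.438 for aPKC to 0.972 for l(2)gl. No member (0 of 10) had an unadjusted p under 0.05, where 15.3% of all genes did (7.19% higher and 8.07% lower). At an adjusted p under 0.05, 0.0160% of all probe sets were called, and 0.100% of genes when the adjustment ran over genes. Of the 10 members, 8 had a log2 difference above 0 and 2 below, with a median of 0.28 against -0.012 over all genes. The median stayed above 0 with array medians subtracted (0.25) and with quantile normalization (0.31). It was 0.072 without control replicate 1, 0.45 without control replicate 2 and 0.13 without Yki replicate 2, so single arrays moved it by more than 1.5 times. The 2 Yki arrays lay entirely above the control arrays for 4 members and entirely below them for 1. Among all genes 22.5% lay above and 25.2% below, or 47.7% in all, so the share of members without overlap (5 of 10) was near that of all genes. No member (0 of 10) differed by 2-fold in all pairs of arrays, where 4.01% of genes did. The discs were measured in bulk, so fewer cells of a type cannot be told apart from less RNA per cell.

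**Figure D1:**
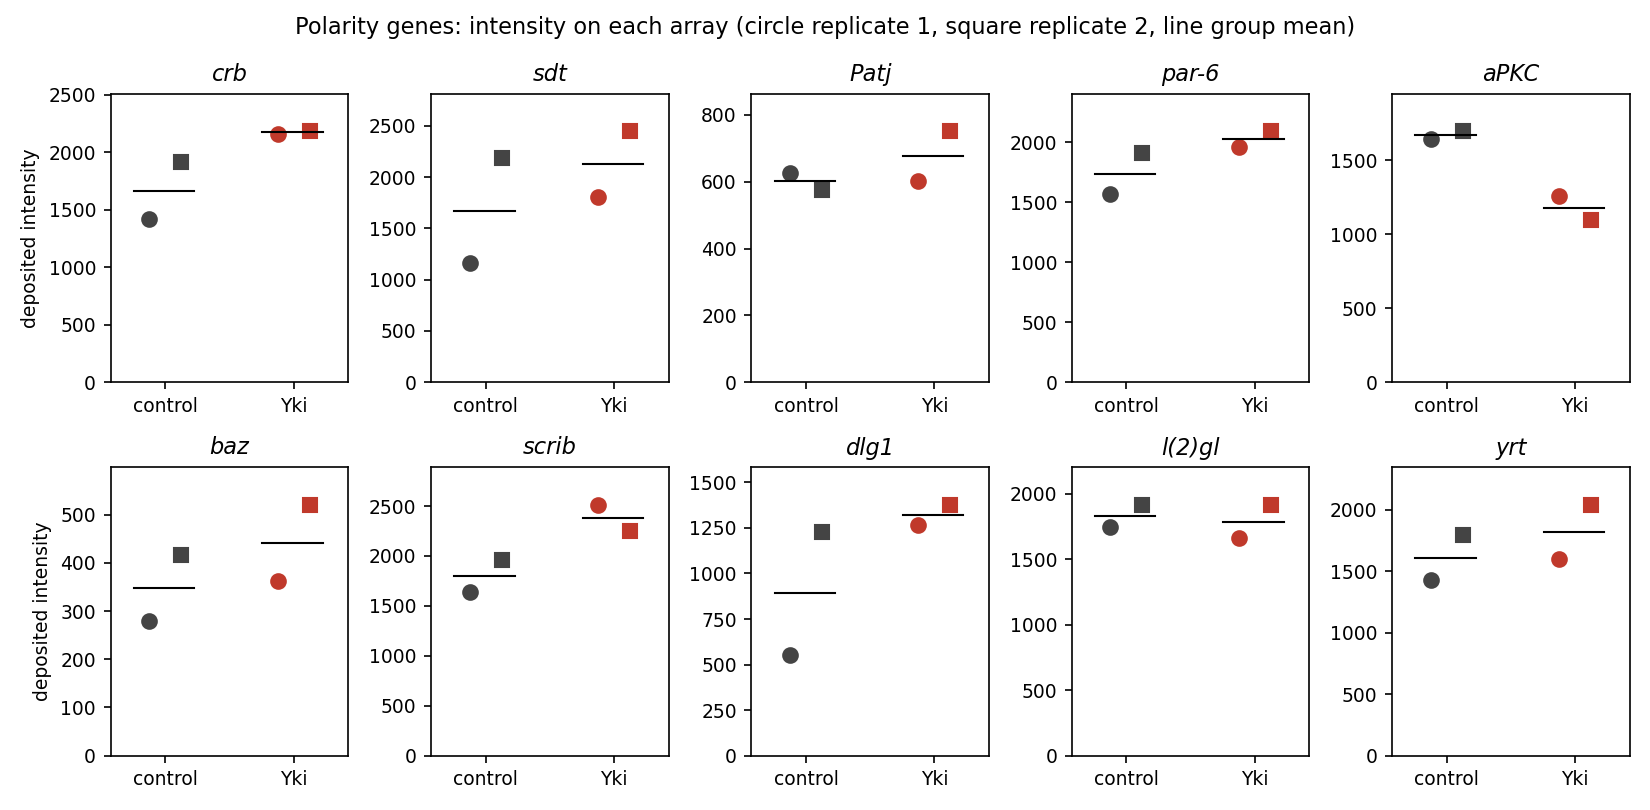
Deposited intensity (linear scale from 0, a separate axis for each gene) of the 10 polarity genes on each of the 4 arrays. Grey points are control and red points Yki arrays, circles replicate 1 and squares replicate 2, and lines are group means. The groups are apart for crb, par-6, scrib and dlg1, with Yki higher, and for aPKC, with Yki lower. Control replicate 1 is the lowest point for 7 of 10 genes.

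In the Crumbs complex, crb encodes the transmembrane protein whose intracellular tail gathers the other subunits. Its intensity was 1419 and 1914 on the control arrays, compared with 2160 and 2183 on the Yki arrays. Both Yki arrays lay above both control arrays, and the Yki arrays were closer to each other than the control arrays were. The means were 1666 ± 350.1 and 2171 ± 16.6 (SD, n = 2 each), a log2 difference of 0.39 with a 95% interval from -0.26 to 1.05 (limma adjusted p 0.583).

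sdt encodes Stardust, the scaffold that binds the Crumbs tail. It had 1159 and 2183 in control discs and 1808 and 2448 in Yki discs. The groups overlapped, and replicate 1 was the lower array in both. The log2 difference was 0.40, with an interval from -0.59 to 1.39 (limma adjusted p 0.722), and it became -0.053 without control replicate 1. Patj, a scaffold with many PDZ domains that joins the complex through Stardust, had 627 and 576 in controls against 602 and 752 with Yki. Its groups overlapped as well, with a log2 difference of 0.16 (interval -0.46 to 0.78, limma adjusted p 0.839) that was 0.0029 without Yki replicate 2 and 0.32 without Yki replicate 1.

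In the Par complex, aPKC was the member with the smallest p-value and, besides l(2)gl, the only one with a lower mean in Yki discs. aPKC encodes the atypical protein kinase C that excludes basolateral proteins by phosphorylating them. Its intensity was 1644 and 1698 on the control arrays, compared with 1261 and 1097 on the Yki arrays. Both Yki arrays lay below both controls, and each pair of replicates was close. The means of 1671 ± 38.0 and 1179 ± 116 (SD, n = 2 each) gave a control level 1.42-fold that of Yki discs. The log2 difference was -0.50 (SE 0.23, interval -1.09 to 0.084, limma adjusted p 0.438), and it ran from -0.60 to -0.40 with any 1 array left out. The unadjusted limma p of 0.0791 did not pass, although it did with a pseudocount of 64. A second aPKC probe set was dim, at 16.1 and 38.7 in control discs and 44.6 and 44.3 in Yki discs, and its log2 difference of 0.53 had the opposite sign.

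par-6 encodes the adaptor that holds aPKC and binds the GTPase Cdc42. It had 1568 and 1910 in controls against 1962 and 2093 with Yki. The groups did not overlap, but the gap between them was smaller than the gap within the control group. The log2 difference was 0.23 (interval -0.38 to 0.84, limma adjusted p 0.750). baz, which encodes the Par-3 scaffold Bazooka, had 279 and 417 on the control arrays, compared with 363 and 521 on the Yki arrays. Its groups overlapped, with a log2 difference of 0.33 (interval -0.49 to 1.16, limma adjusted p 0.721) that became 0.059 without control replicate 1.

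In the Scribble group, dlg1 had the largest difference of any member, and its size rested on 1 control array. dlg1 encodes Discs large, a scaffold of septate junctions and of synapses. The intensity was 552 and 1230 in control discs and 1266 and 1378 in Yki discs. Control replicate 1 stood far below the other arrays, and control replicate 2 was close to the Yki arrays. The means were 890.7 ± 479 and 1322 ± 78.8 (SD, n = 2 each), a log2 difference of 0.67 (SE 0.42, interval -0.41 to 1.75, limma adjusted p 0.571). Without control replicate 1 the log2 difference was 0.10, and without control replicate 2 it was 1.24, where the unadjusted p passed.

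scrib, which encodes a scaffold with leucine-rich repeats and PDZ domains, had 1644 and 1955 in controls against 2514 and 2249 with Yki. Both Yki arrays lay above both controls. The means of 1799 ± 220.0 and 2382 ± 187 (SD, n = 2 each) gave a log2 difference of 0.40 (SE 0.24, interval -0.20 to 1.01, limma adjusted p 0.543), and 0.28 without control replicate 1. l(2)gl encodes Lethal giant larvae, the substrate that aPKC displaces from the apical cortex. It had 1746 and 1913 on the control arrays, compared with 1659 and 1917 on the Yki arrays. The log2 difference of -0.035 (interval -0.63 to 0.56, limma adjusted p 0.972) was the smallest of the set.

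yrt encodes Yurt, a FERM-domain protein that restrains Crumbs. It had 1428 and 1794 in control discs and 1601 and 2041 in Yki discs. The groups overlapped, with a log2 difference of 0.17 (interval -0.51 to 0.85, limma adjusted p 0.839). For Patj, par-6, l(2)gl and yrt the 95% interval lay inside a 2-fold change in either direction. That held for 4 of 10 members and for 39.1% of all genes. For the other members the interval reached past a 2-fold change, on the higher side for crb, sdt, baz, scrib and dlg1 and on the lower side for aPKC.

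The probe sets of 1 gene did not always agree in sign. Of the 10 members, 6 had a single probe set and 4 had several, which gave 13 further probe sets, 10 of them with a mean intensity under 100. Which transcripts or exons each probe set covers is not given in the sources used here. Over all 23 probe sets, 2 had an unadjusted limma p under 0.05, where 13.2% of all probe sets did, and the groups did not overlap for 11 of the 23, where 45.3% of all probe sets did not. None of the 23 was called after adjustment (smallest limma adjusted p 0.265).

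dlg1 was the gene whose probe sets ran alike. On all 4 of them both Yki arrays lay above both control arrays, with log2 differences from 0.44 to 1.03. The dimmest had 34.0 and 59.7 in controls against 88.4 and 135 with Yki, with an unadjusted limma p of 0.0272 that was not called after adjustment. Control replicate 1 was the lower control array on each of the 4, so these probe sets share the low array as well as the gene, and they are not replicates of the comparison. How far the difference rested on that array varied. On the brightest probe set control replicate 2 had 1230, against 1266 and 1378 on the Yki arrays. The next brightest had 231 on that control array against 252 and 336, and the one after it 176 against 233 and 194. The dimmest had 59.7 against 88.4 and 135.

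scrib had 5 probe sets, 3 with a log2 difference above 0 and 2 below. The other probe set past an unadjusted p of 0.05 was one of these, at 93.6 and 98.8 on the control arrays, compared with 49.9 and 41.8 on the Yki arrays. Its log2 difference of -0.86 (interval -1.45 to -0.28, unadjusted limma p 0.0127, not called after adjustment) ran against the brightest scrib probe set. The second brightest, at 500.1 and 676 in control discs and 703 and 408 in Yki discs, overlapped (log2 difference -0.11). sdt had 6 probe sets with log2 differences from -0.39 to 0.44. On each of the 6 the groups overlapped, and 2 had a mean intensity under 16, the pseudocount.

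**Figure D2:**
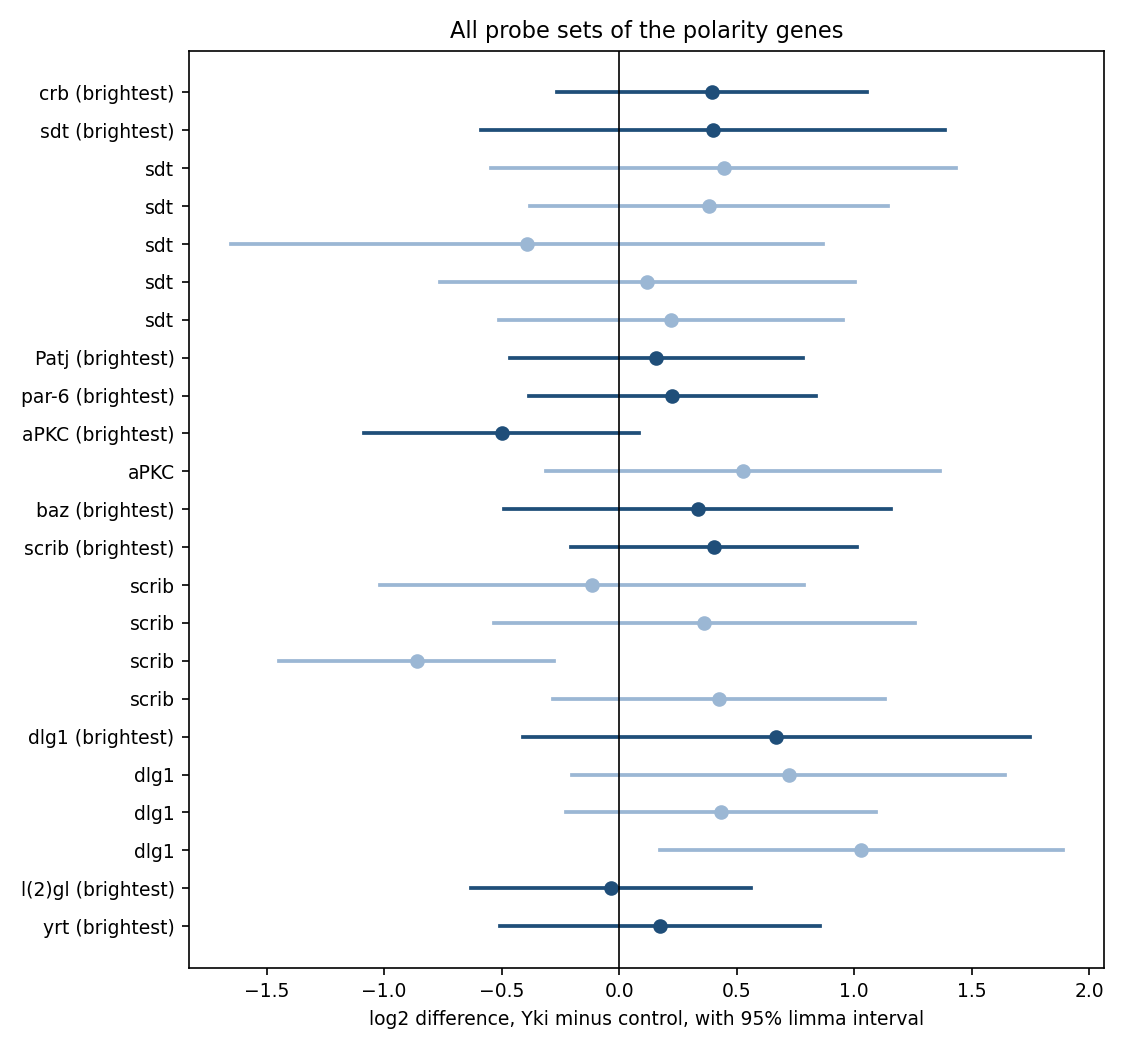
Log2 difference (Yki minus control, on log2 of intensity + 16) of all 23 probe sets of the polarity genes, with bars for the 95% limma interval. Dark points are the brightest probe set of each gene and pale points the others, ordered from brighter to dimmer within a gene. All 4 dlg1 probe sets lie above 0, the probe sets of scrib and aPKC lie on both sides, and the intervals of 21 of 23 probe sets include 0.

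A low control replicate 1 recurred among the members. Control replicate 1 was the lowest of the 4 arrays for 7 of 10 members, against 28.4% of all genes. The count was also 7 with array medians subtracted, where the share of all genes was 15.5%, and with quantile normalization, where it was 23.3%. A low control replicate 1 was not particular to the members. In the lists of related genes described below, that array was the lowest for 11 of 18 septate junction genes (61.1%). The same held for 6 of 11 partners of the polarity proteins (54.5%) and 6 of 13 adherens junction genes (46.2%). The median gap from control replicate 1 to control replicate 2 was 0.30 on the log2 scale for the members and 0.072 over all genes. From Yki replicate 1 to Yki replicate 2 it was 0.16 for the members and 0.0019 over all genes. For 7 of 10 members the control gap was larger than the difference between the group means, as it was for 48.0% of all genes. Only aPKC, scrib and Patj differed more between the groups than between the control arrays, and for Patj the gap between the Yki arrays (0.31) was larger than either. The difference between the groups also contains control replicate 1, so both measures rise when that array is low. Without it crb had a log2 difference of 0.18, par-6 of 0.085 and yrt of 0.011, while aPKC had -0.52. The most alike pair of members over the 4 arrays, among 45 pairs, was crb and scrib (Euclidean distance 0.18 between mean-centred log2 values). The least alike pair was aPKC and dlg1 (distance 1.42).

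**Figure D3:**
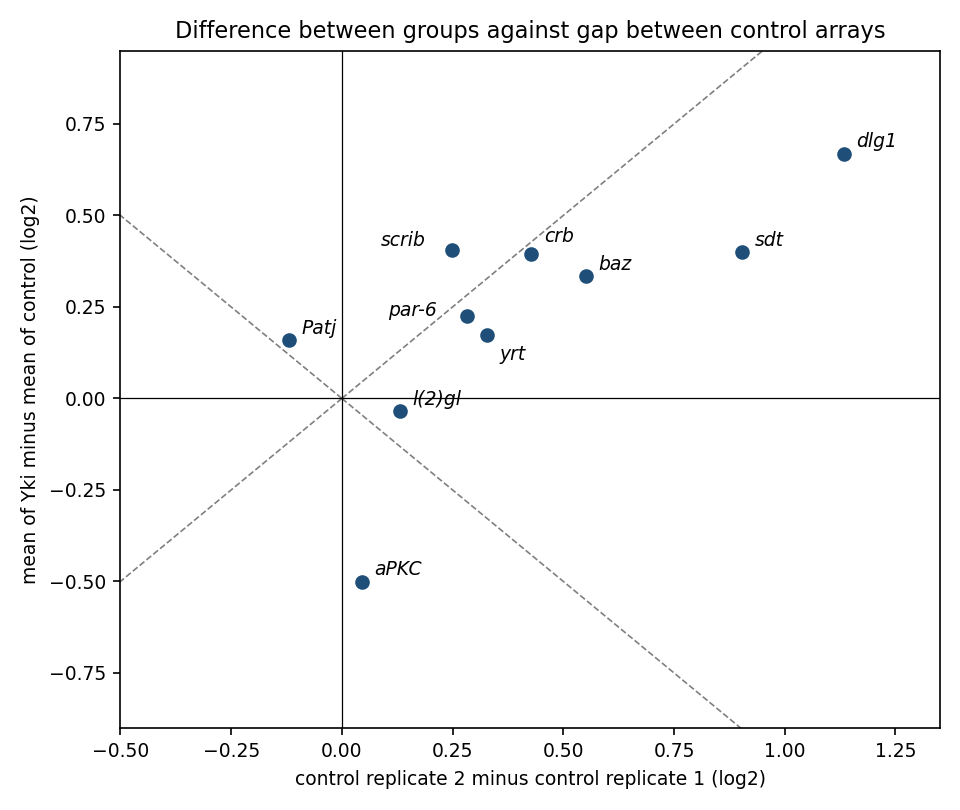
Each point is 1 polarity gene, with the log2 gap between the 2 control arrays on the x axis and the log2 difference between the group means on the y axis. Dashed lines mark equal size, and 7 of 10 genes lie to the side where the control gap is the larger. dlg1 and sdt have the widest control gaps, 1.13 and 0.90, and aPKC combines a gap of 0.046 with a difference of -0.50.

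Among 7818 genes with a mean intensity of at least 100 that were not members, the profiles nearest to dlg1 were those of CarT, Trf2 and CG10804. Their distances from dlg1 were 0.10, 0.10 and 0.12 over the 4 arrays. Each had its lowest value on control replicate 1, which follows from being chosen for likeness to dlg1. CarT had 116 and 259 in controls against 263 and 315 with Yki. The profiles nearest to aPKC were those of CG6479, thoc7 and CG17746, at distances of 0.037, 0.044 and 0.049. thoc7 had 1498 and 1615 on the control arrays, compared with 1183 and 1026 on the Yki arrays. A likeness over 4 arrays rests on few points and is given as a description only.

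The genes around the polarity complexes gave no call either. Lists of partners and junction genes held 51 entries, of which 42 were measured and 9, among them Cdc42, arm, Atpalpha and Fas3, were not analysed here. No gene of the 42 had an unadjusted limma p under 0.05 (0 of 42), and none was called after adjustment, beside the 15.3% of all genes at an unadjusted p under 0.05.

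The partners of the Crumbs, Par and Scribble proteins numbered 11 measured genes, 9 with a log2 difference above 0 and a median of 0.36. The median was 0.15 without control replicate 1 and 0.13 without Yki replicate 1. The Yki arrays lay above the control arrays for 5 of the 11 and below them for 0, beside 22.5% and 25.2% of all genes. kst, the apical heavy spectrin that is tied to Crumbs, had 926 and 924 in control discs and 1666 and 963 in Yki discs. Only Yki replicate 1 stood out, and the log2 difference was 0.45 (limma adjusted p 0.631). gukh, which links Scribble to Dlg at synapses, had 1853 and 1996 in controls against 2870 and 2809 with Yki. Here both Yki arrays lay well above both controls (log2 difference 0.56, limma adjusted p 0.383). par-1, the basolateral kinase that phosphorylates Bazooka, overlapped between the groups (log2 difference 0.36, limma adjusted p 0.688). beta-Spec, a subunit of the basolateral spectrin, and 14-3-3zeta, which binds phosphorylated Bazooka, had log2 differences of 0.57 and 0.48 and did not pass.

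For 18 septate junction genes the median log2 difference was 0.24, with 15 of them above 0. The Yki arrays lay above the control arrays for 10 of the 18 and below them for 1, beside 22.5% and 25.2% of all genes. The median ran from 0.21 to 0.29 with any 1 array left out. cora, which encodes the FERM protein Coracle and acts with yrt in one polarity pathway in the embryo, had 1844 and 2351 on the control arrays, compared with 3151 and 3234 on the Yki arrays. The groups were apart, and the log2 difference was 0.61 (interval -0.016 to 1.24, limma adjusted p 0.385). Nrx-IV, the transmembrane partner of Coracle, had 5861 and 6416 in control discs and 8050 and 8052 in Yki discs (log2 difference 0.39, limma adjusted p 0.530). Lac, a cell adhesion protein of the same junction, had a log2 difference of 0.49 and did not pass.

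For 13 adherens junction genes the median log2 difference was 0.054, with 8 above 0 and 5 below. The median turned to -0.042 without control replicate 1 and to -0.13 without Yki replicate 1, and it was 0.23 without control replicate 2 and 0.27 without Yki replicate 2. The Yki arrays lay above the control arrays for 3 of the 13 and below them for 3, beside 22.5% and 25.2% of all genes. shg, which encodes E-cadherin, had 237 and 234 in controls against 303 and 198 with Yki, so the Yki arrays lay on either side of the controls (log2 difference 0.054, limma adjusted p 0.964). jub, the Ajuba protein that inhibits the Hippo kinase Warts at these junctions, had 537 and 557 on the control arrays, compared with 439.7 and 259 on the Yki arrays (log2 difference -0.67, limma adjusted p 0.456). ed, an adhesion protein of the immunoglobulin family, had a log2 difference of -0.47 and Vinc, vinculin, of 0.50, and neither passed.

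**Figure D4:**
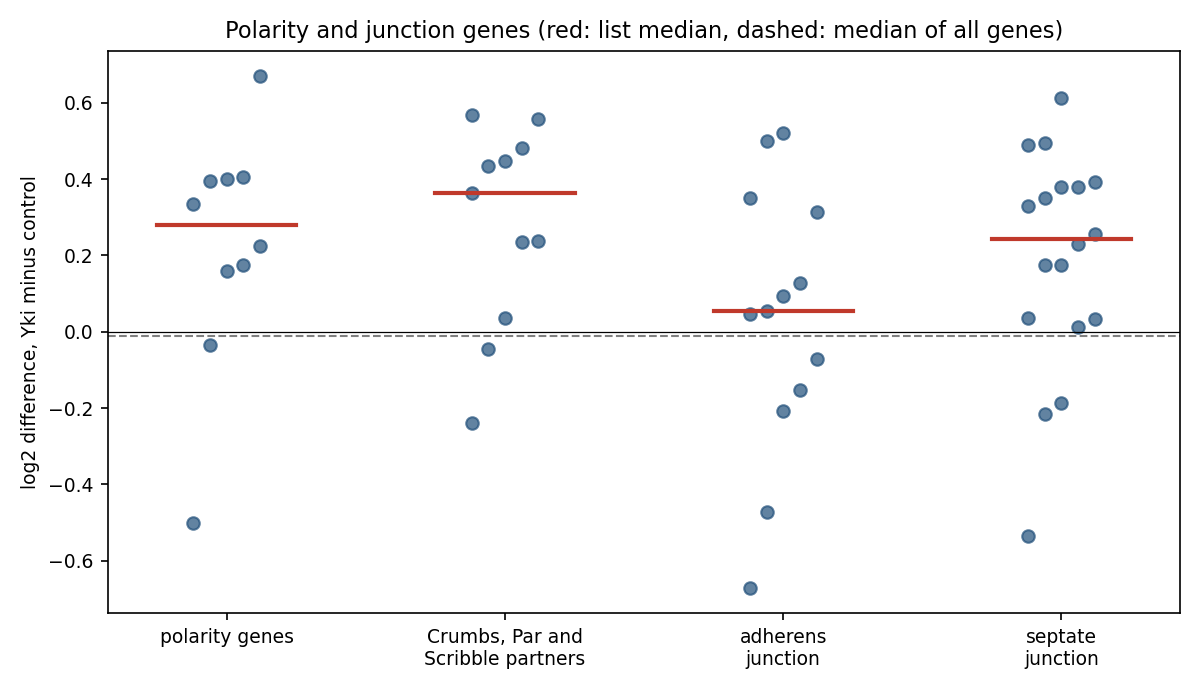
Log2 difference (Yki minus control) of each measured gene in the polarity set and in 3 lists of partners and junction genes. Red lines are list medians of 0.28, 0.36, 0.054 and 0.24, and the dashed line is the median of all genes, -0.012. Each list spans both sides of 0, and no gene plotted passed the test.

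The labels were checked against the overexpressed gene and against tissue markers. yki measured 1285 and 1261 in control discs and 26417 and 26183 in Yki discs, a log2 difference of 4.35 (limma adjusted p 0.0393). Markers of the eye were present on every array, among them elav, gl, so and chp, and they differed in both directions. Of 11 eye markers 6 had a log2 difference above 0 and 5 below, and at an unadjusted limma p under 0.05 the lens gene Cpr72Ec and chp were higher and sev, B-H2 and B-H1 lower. Their summed intensity was 20754 and 26592 in controls and 33796 and 39540 in Yki discs, but without Cpr72Ec it overlapped (12342 and 17468 against 16054 and 18525). The summed intensity of 9 muscle markers was 8706 and 15287 in controls and 25290 and 39615 in Yki discs. Control replicate 1 was the lowest array for 9 of the 9, against 28.4% of all genes. Of these muscle markers 7 had an unadjusted limma p under 0.05, all higher. Glue genes of the salivary gland had a summed intensity of 25167 and 20944 in controls and 1740.1 and 388 in Yki discs, and 5 of 5 had an unadjusted limma p under 0.05, all lower. The glial marker moody was also higher, and the glial marker gcm and the haemocyte marker He lower, at an unadjusted limma p under 0.05. Among all genes 7.19% were higher and 8.07% lower at that threshold. None of the marker genes was called after adjustment. The sum over 7 haemocyte markers overlapped between the groups (2625 to 3119 in all), while 5 of the 7 had a log2 difference below 0, with He at -1.48 and srp at -0.74 and Pxn at 0.59. The sum over 3 fat body markers was 24647 to 34697 in controls and 22820.4 to 24099 in Yki discs, and that over 2 tracheal markers 127 to 298 and 81.8 to 123. The sum over 5 glial markers was 7307 to 8814 in controls and 11628 to 15013 in Yki discs, but without moody it overlapped (5029.9 and 6116 against 5137 and 7363). moody had 2277 and 2699 in controls against 6491 and 7650 with Yki. Gs2 was also higher on both Yki arrays, with a log2 difference of 0.84. The log2 difference was -1.29 for gcm, -0.19 for nrv2 and 0.0092 for repo. No marker was listed at 0. The part of these tissues in the values of the polarity genes was not tested.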

How the data were processed

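Total RNA of each sample was labelled with biotin as cRNA and put on 1 Affymetrix Drosophila array, per the labels' protocols. The deposited values are linear intensities of 18952 probe sets, made by the authors with Affymetrix Expression Console, per the submitters' processing notes. How probes were summarised is not given in these sources. The mean after trimming 2% at each end was 500.01 on every array, which shows a common scaling, and medians ran from 79.4 to 100.7. No column was left unused (0). The 183 control probe sets were left out. Symbols came from the platform annotation, matched to RefSeq (Release 6): 13647 probe sets had 1 symbol, 402 several, and 0 symbols changed.

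Limma 3.58.1 in R 4.3.3 was fitted to log2(intensity + 16) over 18769 probe sets with the group as the only term (2 residual degrees of freedom, 3.03 added by moderation), with Benjamini-Hochberg adjustment at 0.05. This scale understates changes of dim probe sets. With 2 arrays a group the smallest two-sided p of an exact permutation test is 0.333, so none was used. The code was tested on simulated data. The labels call the arrays biological replicates without saying how many animals each holds. The p-values measure the spread between 4 arrays, which limits every value. Over all probe sets same-numbered arrays did not deviate together (r = 0.039), and the labels do not tie the numbers to a batch. For the members the median log2 gap from replicate 1 to replicate 2 was positive in both groups (0.30 in controls and 0.16 with Yki).

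The members and lists were chosen with earlier results of these data known. The text names all members, yki, the 3 genes of each junction list with the smallest p, the 7 junction genes shg, arm, cora, Nrx-IV, kst, par-1 and Cdc42, and the 3 nearest profiles of the 2 members with the largest differences. Some further list genes are named only as not analysed or as marker examples. The alternatives were pseudocounts of 1 and 64, array medians subtracted, quantile normalization, a mean intensity of at least 100, trended and robust moderation, the replicate number as a block, 1 array left out, adjustment over genes, and other uses of several probe sets per gene. Junction list medians with 1 array left out, and marker sums without Cpr72Ec or moody, were added after seeing the data. The markers He, srp, Pxn, moody, Gs2, gcm, nrv2, repo, sev, B-H1 and B-H2 were named after their values were seen.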

Additional observations from a re-analysis of the deposited data

How the results depend on the processing

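No member was called under any of the 11 settings with a new fit (limma adjusted p 0.279 to 1.00), and 107 of 110 member differences kept their sign. One of these settings fitted only the probe sets with a mean intensity of at least 100. That setting, trended and robust moderation and the replicate block left each member's log2 difference as in the fit reported. No sign could change under them, so they add nothing to the count of signs kept. With 1 array left out, sdt ran from -0.053 to 0.85 and l(2)gl from -0.14 to 0.068, and these hold the 3 changes of sign. The number of members at an unadjusted p under 0.05, 0 of 10 in the fit reported, was 1 (aPKC) with a pseudocount of 64, 2 of 23 over every probe set, and 0 to 1 with an array left out (dlg1 without control replicate 2). Members without overlap numbered 5 of 10 in the fit reported, beside 47.7% of all genes. The count was 7 with array medians subtracted and 3 with the mean of a gene's probe sets. It was 6 to 10 with an array left out, where a lone array makes separation easier. The share of all genes was not computed under these other settings, so their counts say nothing particular to the members. Over every probe set of the members 11 of 23 did not overlap, beside 45.3% of all probe sets. The adherens junction median ran from -0.13 (without Yki replicate 1) to 0.27 with an array left out, including -0.042 without control replicate 1, a range added after seeing the data. The members' median log2 difference was 0.28, and 0.072 to 0.45 with an array left out. Probe sets called in all numbered 3, against 0 with a pseudocount of 1, 874 with array medians subtracted, 12 with quantile normalization, 81 at a mean intensity of at least 100, 20 with trended and robust moderation, 27 with the replicate block, 12 with adjustment over genes and 0 with any single array left out. The replicate block changed no member's call. The cause of these changes was not tested. With an array left out the lone array is assumed to vary like the other group. Probe sets near the pseudocount, such as 2 of sdt, are limited by their low signal.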
